A study of Mus musculus with 8 samples.

Results

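Genes of placental trophoblast and of the visceral endoderm were read in whole E11.5 mouse embryos bred from carriers of an allele that expresses little Ott1 (current symbol Rbm15, an RNA-binding protein). The 10 genes were Synb, Gcm1, Tfap2c, Plac1, Elf5 and Tpbpa of the trophoblast, and Dab2, Cubn, Amn and Lrp2 of the visceral endoderm. They mark extraembryonic tissue that may come along when an embryo is dissected, and the set was chosen in part from measured values, since the Synb levels of the homozygous embryos were already known to tend higher. A gene probe was counted as a member when its RefSeq accession belonged to one of the 10 genes. Of 34967 gene probes on the array 9 met this rule, and they covered 8 genes, with 2 probes for Gcm1. No probe was matched to Cubn or Lrp2, whose levels are not analysed here.

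The groups were 3 homozygous embryos (2, 7 and 16), 3 heterozygous embryos (3, 10 and 15) and 2 wild-type embryos (11 and 13), each read on 1 one-colour CodeLink array from its own total RNA. Every embryo came from these matings, and the labels give no strain, sex, litter or dissection record. How far yolk sac and placenta were removed is therefore not known. No probe was matched to Rbm15, so the lowered dose of the targeted gene could not be checked on these arrays.

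Trophoblast is the outer lineage of the conceptus and builds the placenta, where its cells either fuse into syncytiotrophoblast, form the spongiotrophoblast or become giant cells. The visceral endoderm surrounds the early embryo and lines the yolk sac, where it takes up maternal nutrients through large endocytic receptors and secretes plasma proteins much as the liver does later. Several of the genes are not private to these tissues. Tfap2c is also active in surface ectoderm and germ cells, Dab2 in macrophages and other embryonic cells, Elf5 in some epithelia, and the megalin and cubilin receptors in kidney tubules.

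The arrays differed in brightness, and this touches every dim probe. The median intensity net of local background was 61.5, 61.5 and 87.9 on the arrays of homozygous embryos 2, 7 and 16, and lay between 48.3 and 57.6 on the 5 others. The scanner software's call of a spot as above background was made for 26619 gene probes in embryo 16 and for between 22526 and 23721 in the other embryos. Of the probes that were above background on none of the 7 other arrays, 32.1% were above it in embryo 16, whereas the share was 2.16% to 3.97% for each of the other embryos. Levels are given below as log2 of the intensity after quantile normalization between arrays, on which 1 unit is a doubling. They compare embryos within a probe and not one probe with another.

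Synb carried the widest range over the embryos among the members that were tested. It encodes syncytin-B, a protein of retroviral origin that fuses trophoblast cells into the second syncytiotrophoblast layer of the mouse placenta. Its probe was above background in 3 of 3 homozygous embryos and in 0 of 5 others. Its normalized intensity was 35.1, 77.1 and 45.4 in homozygous embryos 2, 7 and 16, against 12.7, 11.1 and 14.6 in heterozygous embryos 3, 10 and 15 and 20.3 and 11.8 in wild-type embryos 11 and 13. All 3 homozygous values thus lay above all 5 others, and embryo 7 was the highest. On the log2 scale the level was 5.64 ± 0.58 (SD, n = 3) in homozygous, 3.67 ± 0.20 (SD, n = 3) in heterozygous and 3.95 ± 0.55 (SD, n = 2) in wild-type embryos.

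Because the probe was not above background in any heterozygous or wild-type embryo, only an approximate lower bound of the fold can be given. Set against the lowest signal that counted as above background on each of those arrays, mean Synb was 2.29-fold higher in homozygous embryos than in the 5 others. This bound is not strict, since a spot above that lowest signal can still count as not above background. Amn did so in heterozygous embryo 15, at 4.64 on the log2 scale against a lowest signal of 4.54. The bound was 2.21-fold against heterozygous and 2.41-fold against wild-type embryos. These values describe the pattern for which the gene was taken, so no test is attached to them. The signal itself was low. Before the local background was taken off, the spot mean was 84.9, 133 and 124 in homozygous embryos 2, 7 and 16 and between 58.1 and 69.3 in the other embryos, over a local background of 48 to 56 on all 8 arrays.

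Calls above background for otherwise dim probes were most frequent on the array of embryo 16, and its part in the call for Synb there was not tested. Among 8229 probes without a quality mark that were above background on none of the 5 heterozygous and wild-type arrays, 2961 (36%) were above it in embryo 16, 535 (6.5%) in embryo 2 and 419 (5.09%) in embryo 7. Both embryo 2 and embryo 7 were above background for 67 of them (0.814%), and all 3 homozygous embryos for 48 (0.583%), Synb included. Over all gene probes 50 had this pattern, of which 6 carry a gene symbol, namely Chac1, Synb, Map3k2, Ccdc106, Foxa3 and Trim15. Without embryo 16 the bound for Synb was 2.52-fold, and without embryo 7 it was 1.83-fold. Of the tested probes with a value on every array, 4.71% had all 3 homozygous values above all others, a share to be read as background for the same pattern in Synb. In whole embryos, more cells of a type and more RNA per cell cannot be told apart.

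**Figure D1:**
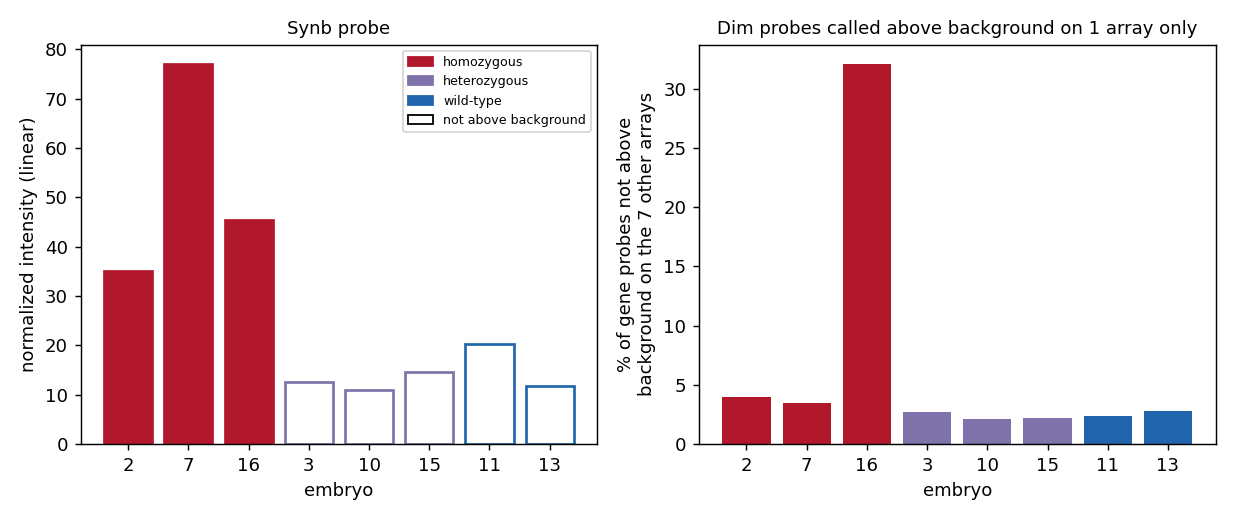
Left, normalized intensity (linear scale) of the Synb probe in each embryo, with homozygous embryos on the left and open bars for values not above background. Right, for each array, the percentage of gene probes not above background on the 7 other arrays that were above it there. Synb reaches 35.1 to 77.1 in the homozygous embryos, against 11.1 to 20.3 elsewhere, and the array of embryo 16 calls 32.1% of such dim probes, against 2.16% to 3.97% on the others.

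The other syncytiotrophoblast gene did not show this pattern. Gcm1, the transcription factor that starts syncytiotrophoblast formation and branching of the labyrinth, was above background in all 8 embryos with its brighter probe. That probe was at 6.09, 6.44 and 6.10 in homozygous embryos 2, 7 and 16, against 6.25, 6.44 and 6.30 in heterozygous embryos 3, 10 and 15 and 6.29 and 6.22 in wild-type embryos 11 and 13. The groups overlapped, and the whole range over 8 embryos was 0.35. Homozygous minus other embryos gave a log2 difference of -0.09 (SE 0.11, limma adjusted p = 0.67). The second Gcm1 probe was above background only in homozygous embryo 16 and wild-type embryo 13, at 4.3 and 5.0, and was not tested.

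Among the other trophoblast members, Tfap2c and Plac1 were well measured and Elf5 was not. Tfap2c, a transcription factor that trophoblast stem cells need, was at 8.36, 8.34 and 8.27 in homozygous embryos 2, 7 and 16. It was at 8.42, 7.83 and 7.82 in heterozygous embryos 3, 10 and 15 and at 8.51 and 8.35 in wild-type embryos 11 and 13. Heterozygous embryos 10 and 15 stood below the 6 others, which lay between 8.27 and 8.51, while heterozygous embryo 3 lay among them. For homozygous minus other embryos the log2 difference was 0.14 (SE 0.18, limma adjusted p = 0.688), and its sign turned with median scaling and with the authors' deposited values (-0.06 and -0.10). The median of all probes moved as well, to -0.22 and -0.25, and Tfap2c lay above it under all 3 scalings. Between heterozygous and wild-type embryos it was -0.41 (SE 0.19, limma adjusted p = 1), and neither passed.

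Plac1, an X-linked gene expressed in all trophoblast lineages, varied within every genotype. Its level was 7.35, 8.06 and 8.09 in homozygous embryos 2, 7 and 16, against 7.83, 8.18 and 7.41 in heterozygous embryos 3, 10 and 15 and 7.87 and 7.64 in wild-type embryos 11 and 13. The lowest value was in homozygous embryo 2 and the highest in heterozygous embryo 10, and the groups overlapped. Set against the 5 other embryos, the homozygous ones differed by 0.05 on the log2 scale (SE 0.22, limma adjusted p = 0.915). That was smaller than the SD of 0.42 among the homozygous embryos, and its sign turned under the same 2 settings (-0.14 and -0.17), where it too lay above the median of all probes. It also turned without homozygous embryo 7 (-0.06), homozygous embryo 16 (-0.08) or heterozygous embryo 15 (-0.04).

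Elf5, a transcription factor that keeps trophoblast stem cells in their fate, was above background in 1 of 8 embryos. That was homozygous embryo 16, where its level was 5.49, against 3.93 and 3.68 in homozygous embryos 2 and 7, a range of 3.31 to 3.96 in heterozygous embryos and 3.79 and 4.20 in wild-type embryos. Tpbpa, the marker of the spongiotrophoblast and ectoplacental cone, was also above background only in embryo 16, at 3.62. Its level there lay below that of homozygous embryo 2 (4.10) and of heterozygous embryos 3 and 15 (3.8 and 3.9), none of which counted as above background. Both calls fall on the array that called 32.1% of the otherwise dim probes, and neither probe entered the tests.

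**Figure D2:**
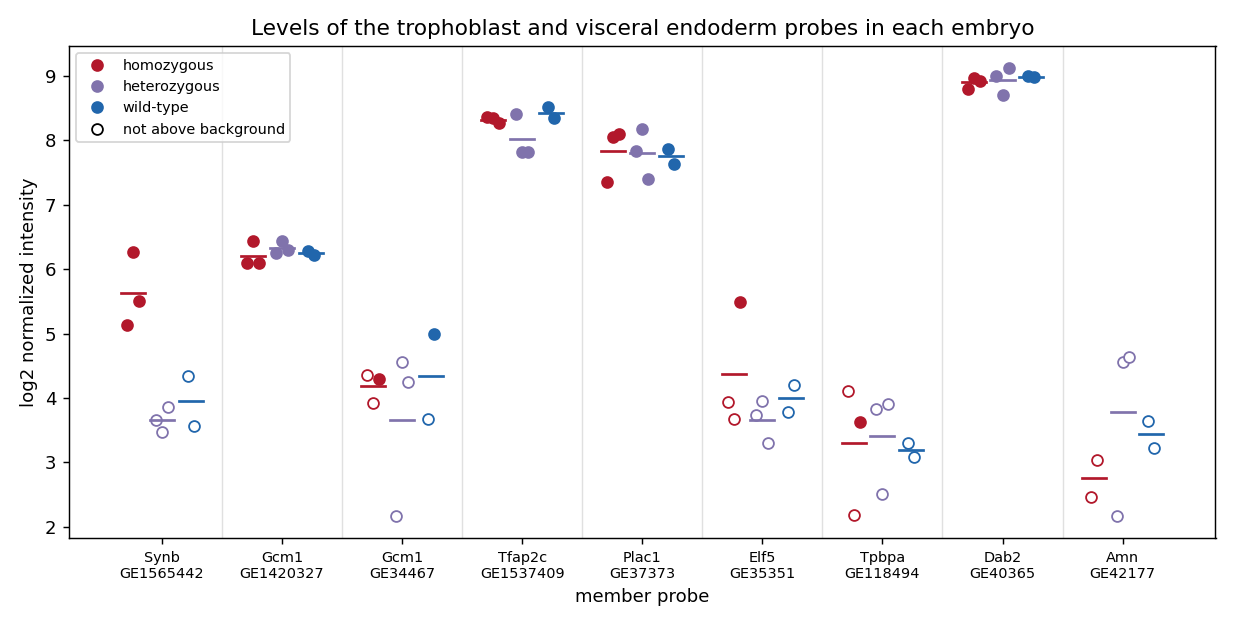
Log2 normalized intensity of the 9 member probes in each embryo, with homozygous, heterozygous and wild-type embryos from left to right within each probe. Filled points are above background, open points are not, and short lines are group means. Synb is the probe whose 3 homozygous values are all filled and all above the 5 others, while Gcm1 (GE1420327), Tfap2c, Plac1 and Dab2 are filled in every embryo and overlap.

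Of the visceral endoderm members, Dab2 was the one with a level in every embryo. Dab2 is an endocytic adaptor that binds the tail of megalin and links it to clathrin. It was at 8.81, 8.97 and 8.93 in homozygous embryos 2, 7 and 16, against 9.0, 8.71 and 9.12 in heterozygous embryos 3, 10 and 15 and 9.0 and 8.99 in wild-type embryos 11 and 13. The range over all 8 embryos was 0.41, heterozygous embryo 10 was the lowest and heterozygous embryo 15 the highest. Over genotypes, the homozygous minus other log2 difference was -0.06 (SE 0.11, limma adjusted p = 0.769), equal to the median of all tested probes to 2 decimals (-0.06). Amn, the membrane anchor of the cubilin receptor, was above background in 0 of 7 embryos with a usable spot, and its spot in homozygous embryo 16 was masked by the scanner software and left out. Its highest levels, 4.56 and 4.64 in heterozygous embryos 10 and 15, did not count as above background.

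Across the members, 5 of 9 probes passed the filter, which asked that 1 genotype or more have every array above background. Synb passed only through the homozygous embryos, where it is high, so its homozygous difference is not independent of the filter. Of the 4 other tested genes, 0 passed an adjusted p of 0.05 in homozygous against the other embryos, a comparison in which 0.107% of all tested probes passed. The count was also 0 of 4 in homozygous against wild-type and in homozygous against heterozygous embryos, where 0.0342% and 0.0214% of all tested probes passed. Their log2 differences there lay between -0.12 and 0.30, with limma adjusted p-values between 0.499 and 0.973. In each of these 3 comparisons 0 of the 4 genes had an unadjusted limma p under 0.05. Of all tested probes 20% had one against the other embryos, 15.3% against wild-type and 11.6% against heterozygous embryos. With 4 genes, a count of 0 does not set them apart from these shares. The comparisons share the homozygous arrays and are not independent of each other.

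Heterozygous against wild-type embryos is the one comparison that uses no homozygous array in its difference and so stands apart from the choice of Synb. Synb was above background in neither genotype and is not counted. Of the 4 other tested members 0 passed, as did 0% of all tested probes by limma after adjustment, while 538 probes (2.3%) had an unadjusted p under 0.05. The log2 difference was 0.08 (SE 0.14) for Gcm1, 0.05 (SE 0.29) for Plac1 and -0.05 (SE 0.15) for Dab2, each with a limma adjusted p = 1. Tfap2c had the lowest unadjusted p among the 4, 0.0695 by limma. With 2 or 3 arrays a genotype these intervals are wide, and a missed threshold does not show equal levels.

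**Figure D3:**
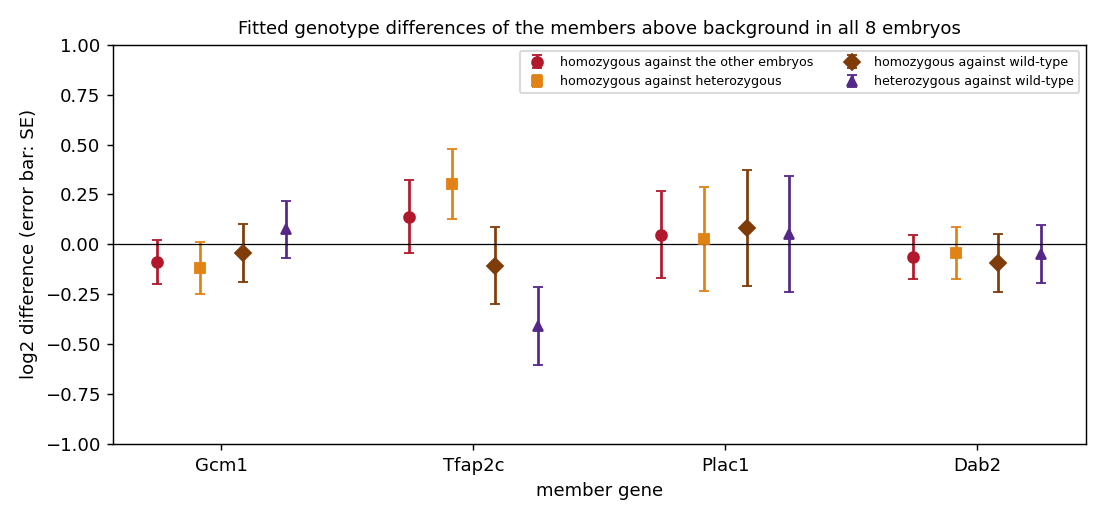
Fitted log2 difference and its SE for the 4 members above background in all 8 embryos, in 4 comparisons that share arrays. The differences lie between -0.41 (Tfap2c, heterozygous against wild-type) and 0.30 (Tfap2c, homozygous against heterozygous), and none passed the threshold.

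Correlations among the tested members over the embryos were weak. As a description over 8 embryos, Pearson's r of Synb with the brighter Gcm1 probe was -0.12, with Tfap2c 0.36, with Plac1 0.19 and with Dab2 -0.02. Among the other pairs r lay between -0.39 (Gcm1 and Tfap2c) and 0.47 (Gcm1 and Plac1). The genes whose pattern over the 8 embryos was most like that of Synb, among 10838 named probes, were Nuak2 (r = 0.974), Acsl3 (r = 0.954), Zbtb21 (r = 0.942), Tmem70 (r = 0.94) and Coq8b (r = 0.94). Nuak2, a stress-activated kinase, was at 9.0, 9.15 and 9.01 in homozygous embryos 2, 7 and 16, against a range of 8.65 to 8.89 in the 5 remaining ones. Acsl3, which activates long-chain fatty acids, was at 11.41, 11.52 and 11.35 in those 3 embryos, against a range of 11.13 to 11.23 in the 5 remaining ones. All 5 vary far less than Synb, and the points share genotype and array brightness. Synb was above background in only 3 of the 8 embryos, so these r values largely follow its homozygous against other split. Of tested probes with a value on every array, 4.71% had all 3 homozygous values above all others.

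Other trophoblast genes gave a second view of whether placental tissue was present. Of 51 genes listed 39 had a probe and 27 were tested, and 0 rose and 0 fell in homozygous against the other embryos. By limma 6 of the 27 had an unadjusted p under 0.05, as did 20% of all tested probes. Their median log2 difference was -0.06, beside -0.06 over all tested probes. Over 30 listed genes without a missing value, the summed normalized intensity was 5575 to 7723 in homozygous embryos. It was 5252 to 7222 in heterozygous and 5047 to 5447 in wild-type embryos. Markers of mature placental cells differed in whether they were measured. Tpbpb of the spongiotrophoblast, the placental cathepsins Ctsq and Ctsr, the prolactin family gene Prl7d1 and the steroid enzyme gene Cyp11a1 of giant cells were above background in 0 embryos, with the Tpbpb and Ctsr spots of embryo 16 missing, and the spot of the placental lactogen gene Prl3d1 was marked on all arrays. Other such markers were above background, among them the pregnancy-specific glycoprotein gene Psg17 in 8 embryos, Prl3b1 in 7, and Ctsj and Prl4a1 in 2 each. The markers named here were singled out after their values were seen. Of the 39 listed genes with a probe, 21 were above background in all 8 embryos and 5 in none, with Prl3d1 in neither count. The 6 brightest of the list were Krt7, Slc16a3, Dlx3, Bmp4, Phlda2 and Met, all of which also serve other embryonic tissues.

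A few trophoblast genes stood away from the rest without passing. Slc16a3, a lactate exporter of the syncytiotrophoblast and of glycolytic cells, was at 10.01, 10.56 and 11.08 in homozygous embryos 2, 7 and 16, against a range of 8.82 to 9.85 in the 5 others. The groups did not overlap, as held for 4.71% of tested probes in this direction, and the log2 difference was 1.26 (SE 0.28, limma adjusted p = 0.121). Ovol1, a repressor that helps trophoblast leave the progenitor state, was at 4.57, 4.81 and 4.41 in homozygous embryos, against a range of 5.30 to 5.44 in the 5 remaining ones. It was above background in 2 of 3 homozygous embryos and 5 of 5 others. Ovol1 thus met the filter only through the heterozygous and wild-type embryos, where it is higher, so its p-values are not independent of the filter. Its log2 difference of -0.77 (SE 0.11, limma adjusted p = 0.0504) did not pass. The difference passed without homozygous embryo 7 (-0.87, limma adjusted p = 0.016) and with array weights (-0.69, limma adjusted p = 0.0284), and was -0.28 with normexp. The placental lactogen gene Prl3b1 had a log2 difference of -1.44 (SE 0.31, limma adjusted p = 0.123), fitted without heterozygous embryo 15, whose spot was missing, and -0.85 with normexp. Ovol1 and Prl3b1 were picked out after their values were seen.

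Of the other visceral endoderm genes 36 were listed, 33 had a probe and 26 were tested. Here 0 rose and 0 fell in homozygous against the other embryos by limma after adjustment, while 8 had an unadjusted p under 0.05, beside 20% of all tested probes, with 20 of negative and 6 of positive sign and a median log2 difference of -0.18, beside -0.06 over all tested probes. Ttr and Afp, both secreted, had the most negative differences. Ttr, a carrier of thyroid hormone and retinol, was at 9.24, 9.23 and 8.67 in homozygous embryos 2, 7 and 16, against 9.97, 9.94 and 10.59 in heterozygous embryos 3, 10 and 15 and 10.33 and 10.71 in wild-type embryos 11 and 13. The groups did not overlap, as held for 9.51% of tested probes in this direction, and the log2 difference was -1.26 (SE 0.22, limma adjusted p = 0.0855). For Afp, the fetal albumin-like protein, it was -0.84 (SE 0.30, limma adjusted p = 0.194), and for the apolipoprotein gene Apoa1 -0.57 (SE 0.15, limma adjusted p = 0.14). The 3 other brightest genes were Apoe (0.37, SE 0.15), the transcriptional coregulator Cited1 (-0.33, SE 0.10) and the retinol carrier Rbp4 (-0.21, SE 0.10), and none of these passed. Values of the bright genes moved with the scaling. With the authors' deposited values, under which the median of all probes was -0.25, they were 0.04 for Apoe, -0.65 for Cited1, -0.51 for Rbp4 and -0.87 for Apoa1.

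Most of those secreted proteins are also made by the fetal liver, and most liver markers also had a negative sign. Of 10 tested hepatocyte genes that are not on the visceral endoderm list 9 had a negative sign, with a median log2 difference of -0.44. Their summed normalized intensity, over 8 genes without a missing value, was 1444 to 1673 in homozygous embryos, against 1563 to 2571 in heterozygous and 2419 to 2721 in wild-type embryos. The summed intensity of the visceral endoderm list, over 30 genes, was 8777 to 9455 in homozygous embryos, against 9721 to 12750 in heterozygous and 11780 to 12690 in wild-type embryos. The part of liver in the values of the visceral endoderm list was not tested. Hnf4a, a nuclear receptor of both tissues, was above background in 1 of 8 embryos.

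**Figure D4:**
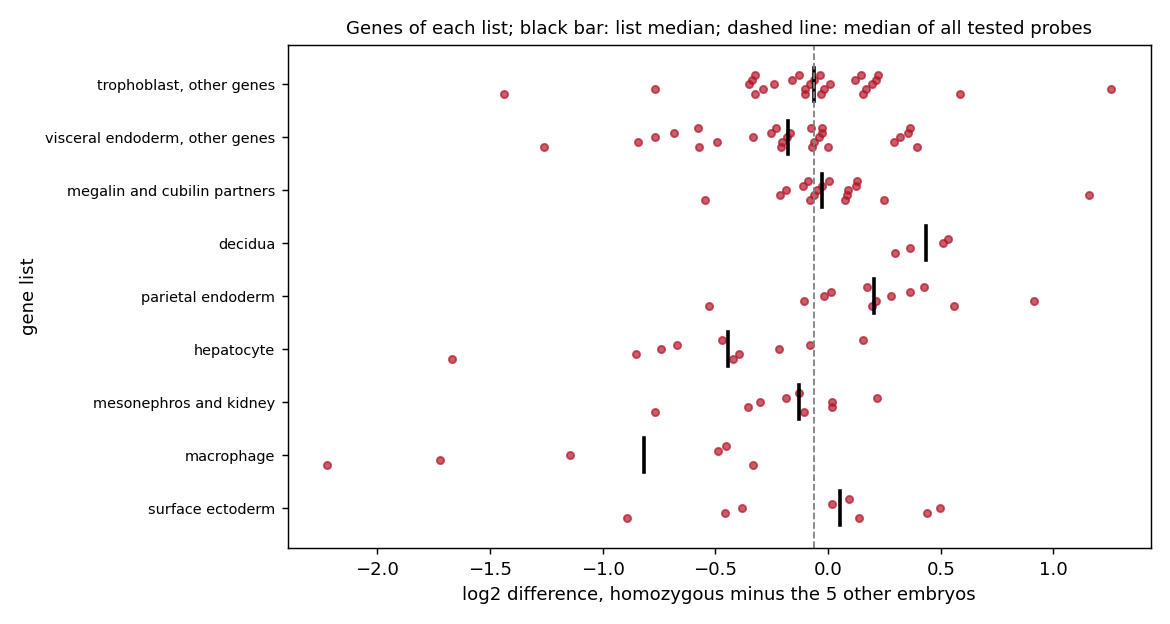
Homozygous minus other log2 difference for each tested gene of 9 lists, with the list median as a black bar and the median of all tested probes (-0.06) as a dashed line. The trophoblast list is centred on that line, the visceral endoderm list lies at -0.18, the hepatocyte list at -0.44 and the macrophage list at -0.82.

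The uptake machinery that works with Dab2, Cubn, Amn and Lrp2 was measured for most of its genes. Of 22 partner genes 20 had a probe and 17 were tested. In homozygous against the other embryos 0 rose and 0 fell by limma after adjustment. An unadjusted p under 0.05 was reached by 1 of the 17, beside 20% of all tested probes. There were 8 positive and 9 negative signs and a median log2 difference of -0.03. The megalin chaperone gene Lrpap1 was at 10.78 and 11.29 in homozygous embryos 7 and 16, against a range of 11.06 to 11.13 in heterozygous and wild-type embryos, with the spot of embryo 2 missing. The receptor gene Vldlr was at 7.36, 7.89 and 8.995 in homozygous embryos 2, 7 and 16, against a range of 6.74 to 7.12 elsewhere. Such a lack of overlap in this direction held for 4.71% of tested probes. Its log2 difference of 1.16 (SE 0.31, limma adjusted p = 0.142) was 0.72 without embryo 16. The intrinsic factor gene Cblif was above background in 0 embryos.

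Lists of neighbouring tissues set the levels in context, and in homozygous against the other embryos 0 of their tested genes passed in either direction by limma. An unadjusted p under 0.05 was reached by 1 of 4 decidua, 5 of 12 parietal endoderm, 4 of 10 hepatocyte, 1 of 9 kidney, 3 of 6 macrophage and 2 of 8 surface ectoderm genes, beside 20% of all tested probes. Decidua, the maternal tissue around the placenta, had 4 tested genes of 9, all of positive sign, with a median log2 difference of 0.44, and the decidual prolactin genes Prl3c1 and Prl6a1 were above background in 0 and 1 embryos. Its summed intensity over 8 genes was 948 to 1020 in homozygous, 703 to 789 in heterozygous and 842 to 861 in wild-type embryos. Wnt4 and Alpl, the brightest of the list at means of 8.49 and 8.13 in homozygous embryos, weigh most in this sum. Prl8a2, the decidual prolactin-related gene, was at 4.30 in heterozygous embryo 3 and between 6.55 and 7.85 in the 7 others. Its homozygous minus wild-type log2 difference was -0.52 (SE 0.72), while the 3 other tested decidua genes were of positive sign there. Parietal endoderm, the matrix-secreting partner of visceral endoderm, had 12 tested genes, 9 of positive and 3 of negative sign, with a median of 0.20. The laminin gene Lama1 was at 0.56 (SE 0.10, limma adjusted p = 0.0855), and Thbd at -0.53 (SE 0.14, limma adjusted p = 0.14). Lama1 passed with normexp and with a trended robust prior (limma adjusted p = 0.0349 and 0.0328), and was 0.30 with the authors' deposited values. How much of the decidua and parietal endoderm signal came from tissues of the embryo itself was not tested.

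Macrophage genes, which matter here because macrophages also use Dab2, were all 6 of negative sign among those tested, with a median log2 difference of -0.82. Their summed intensity over 6 genes was 401 to 516 in homozygous, 293 to 1106 in heterozygous and 817 to 915 in wild-type embryos. In homozygous against wild-type embryos 1 of the 6 passed, beside 0.0342% of all tested probes. This was Fcgr1, a high-affinity antibody receptor. It was at 3.75, 3.83 and 3.77 in homozygous embryos 2, 7 and 16, of which 1 was above background, against 5.96 and 6.01 in wild-type embryos 11 and 13. The log2 difference was -2.20 (SE 0.23, limma adjusted p = 0.0484). Fcgr1 was above background in 1 of 3 homozygous and 4 of 5 other embryos. It met the filter only through a genotype where it is higher, so this p-value is not independent of the filter. The call was lost under 12 of 18 alternatives, among them leaving out any one embryo other than heterozygous embryo 10 (limma adjusted p = 0.0527 to 0.347), and the difference was -0.79 with normexp. Heterozygous embryo 10 was the lowest for the summed intensity and also for Dab2. Mesonephros and kidney genes, another site of megalin and cubilin, had a median of -0.13 over 9 tested genes, and the kidney markers Pax2, Cdh16 and Pax8 were above background in 2, 2 and 1 embryos. Surface ectoderm genes, a further site of Tfap2c, had a median of 0.05 over 8 tested genes. The part of these tissues in the members' values was not tested.

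In RefSeq promoter windows of the mouse assembly GRCm38.p6, each covering 250 bases before to 50 after an annotated start, 8 of the 10 genes had an entry, with 11 windows in all. The AP-2 motif GCCNNNGGC, which Tfap2c-type factors recognise, was searched on both strands and was present in 3 of 11 windows, beside 16.6% of 32851 windows of the same length. The GATA motif AGATAA was present in 2 of 11 windows, beside 11.2%, and the GCM core GCGGGT in 1 of 11, beside 12.4%. These are descriptions of letters and not binding sites. The windows of Tpbpa, which was at background, and of Dab2, which was bright in every embryo, are shown because both genes hold an AP-2 match and differ in detection. Capitals mark the AP-2 match in the first 2 sequences, at positions -114 and -203 relative to the annotated start, and the GATA match at position 15, read on the other strand, in the last one.
Tpbpa, chr13:60941887-60942186, minus strand: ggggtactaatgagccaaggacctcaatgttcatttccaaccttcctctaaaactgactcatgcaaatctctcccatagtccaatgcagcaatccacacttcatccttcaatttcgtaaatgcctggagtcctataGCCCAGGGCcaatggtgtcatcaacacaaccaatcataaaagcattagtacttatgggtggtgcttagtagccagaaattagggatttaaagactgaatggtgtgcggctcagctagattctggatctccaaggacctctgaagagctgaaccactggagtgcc
Dab2, chr15:6386498-6386797, plus strand: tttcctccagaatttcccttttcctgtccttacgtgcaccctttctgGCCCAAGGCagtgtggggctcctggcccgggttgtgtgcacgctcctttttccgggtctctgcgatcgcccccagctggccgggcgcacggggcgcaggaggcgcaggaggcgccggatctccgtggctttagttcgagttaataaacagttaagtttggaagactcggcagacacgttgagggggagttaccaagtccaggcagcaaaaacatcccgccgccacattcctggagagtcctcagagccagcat
Dab2, second start, chr15:6299539-6299838, plus strand: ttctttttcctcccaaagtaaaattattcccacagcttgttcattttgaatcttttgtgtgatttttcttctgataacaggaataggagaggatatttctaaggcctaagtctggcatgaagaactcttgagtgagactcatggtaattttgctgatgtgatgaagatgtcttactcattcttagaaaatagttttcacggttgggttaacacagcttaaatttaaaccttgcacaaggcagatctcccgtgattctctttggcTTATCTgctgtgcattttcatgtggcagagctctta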

How the data were processed

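Per the labels' protocols, total RNA of snap-frozen embryos was turned into biotin-labelled cRNA by the CodeLink procedure. Per the file headers and the values, each deposited array file holds an intensity per spot, net of the median of the pixels around it, and a scaled intensity, which the deposited value table repeats within 5e-08 on a linear scale that is not centred per gene. The scanner software is not given in the sources used here. Control spots and gene spots marked contaminated, irregular or masked were left out (206 to 1634 per array), and saturated spots were kept. Intensities were quantile normalized in limma 3.58.1 (R 4.3.3), floored at the 5th percentile of positive values (4.50), and log2 was taken. The 23389 probes that had 1 genotype or more with every array above background were fitted with lmFit and eBayes over all 8 arrays, two-sided, with Benjamini-Hochberg adjustment over all tested probes and a threshold of 0.05. Homozygous against the 5 other embryos was fitted with 2 genotype classes, and the other comparisons with 3. A probe was named through its accession in a RefSeq gene list, which gave 1 symbol for 14763 probes. In a list, each gene was read from its brightest tested probe, or its brightest probe where none was tested. The embryos are separate animals, and their number limits the precision. The fit was tested on simulated data.

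The members and lists were chosen with earlier results of these data known. Named by rule were every member, any list gene past the threshold, otherwise up to 6 of the highest mean per list, and the 5 genes most like Synb by Pearson's r, of which some are printed. Other list genes in the text were picked after their values were seen, and 1 list gene is not reported here. Tried instead were cyclic loess, median scaling, normexp, the deposited value table, other floors and filters, marked spots kept, array weights, a trended robust prior, a fit of the compared genotypes alone, and leaving out each embryo in turn. No slide or scan batch holding over 1 array is named, so none was fitted.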

Additional observations from a re-analysis of the deposited data

How the results depend on the processing

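Synb left aside, 0 members passed in any comparison under any alternative run. The 3 homozygous Synb values lay above the others under every alternative, which is the pattern for which the gene was taken. The other floor and filters, array weights, the trended robust prior and the fit of the compared genotypes alone leave its values unchanged. They could not have altered this order. The approximate lower bound of the fold ranged from 1.38 with normexp, which lifts all dim values, to 2.69 without homozygous embryo 2. With marked spots kept no bound could be set, since the value there, 3.53-fold, is over signals not above background. Small differences changed sign in homozygous against the other embryos. Gcm1 went to 0.0351 under cyclic loess, Tfap2c to -0.0628 and Plac1 to -0.135 under median scaling, and Tfap2c to -0.0966 and Plac1 to -0.169 in the deposited table. The median of all probes was there -0.218 with median scaling and -0.251 with the deposited table, against -0.0634 in the analysis reported. Leaving out 1 embryo gave Plac1 values from -0.0828 to 0.292. In heterozygous against wild-type embryos, leaving out 1 embryo gave -0.132 to 0.252 for Plac1 and -0.138 to 0.066 for Dab2. Among the other trophoblast genes 1 passed with array weights, and 0 to 1 when an embryo was left out (Ovol1, without embryo 7). Among the other visceral endoderm genes 1 passed in the deposited table, with normexp and with the trended robust prior (Ttr each time), and 0 to 1 when an embryo was left out (1 without embryo 7). The cause of these changes was not tested. Without either wild-type embryo that genotype has 1 array, assumed to vary as the other genotypes do. No paired analysis was possible because the labels give no litter by which embryos of different genotype could be matched. No batch block was run. For Elf5, Tpbpa, Amn and the second Gcm1 probe, signal over background limits what can be said.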
